A study of Mus musculus with 4 samples.

Results

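The Kruppel-like factor genes Klf2, Klf3, Klf4, Klf5, Klf6, Klf7, Klf9, Klf10, Klf13 and Klf16 were followed through an ATAC-seq comparison, in which a transposase inserts adapters into open DNA. Every accessible region whose nearest gene, as the authors assigned it, carries one of these 10 names was taken. That gave 27 of 80929 regions, nearest to 9 of the 10 genes; no region was named for Klf16, which is not analysed here. The mouse line RAW264.7, which is macrophage-like, was cultured with a hydrogel for 48 h: 2 libraries were titled CuNZ@Gel, which the series' title calls a nanozyme hydrogel, and 2 were titled Gel. All 4 records carry one treatment text, which names CuNZ@Gel, so the Gel group is known from its titles. No label says whether replicates were grown separately; p-values therefore reflect the spread among these 4 libraries, and that spread may be technical.

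Kruppel-like factors are transcription factors with zinc fingers at the carboxyl end that bind GC-rich and CACCC sequences, and they share such sites with the SP factors. In macrophages Klf2 and Klf4 are known to restrain inflammatory gene programmes, Klf4 with a role in alternative activation, whereas Klf6 is known to favour inflammatory activation. Several members repress transcription by recruiting corepressors such as CtBP or Sin3a, and others activate it through acetyltransferases.

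The promoters of 4 members are shown, with Klf2, Klf4 and Klf3 among the genes whose main region fell and Klf7 the gene whose regions were not called. A stronger region between the Klf7 regions, which the authors named for Gm35880, did fall, so Klf7 is no clear example of an unchanged locus. Klf5, the gene whose single region rose, had no promoter entry and could not be shown. Klf10 and Klf16 had no entry either. Each is the 250 bases before the gene's start in RefSeq GRCm38.p6, read 5′ to 3′ on the gene's strand, with matches to CACCC, to GGGCGG (the GC box) and to the MEF2 motif on either strand in capitals. They lie at chr8:72318812-72319061 (plus strand) for Klf2, chr4:55532476-55532725 (minus strand) for Klf4, chr5:64803271-64803520 (plus strand) for Klf3 and chr1:64121390-64121639 (minus strand) for Klf7.
Klf2: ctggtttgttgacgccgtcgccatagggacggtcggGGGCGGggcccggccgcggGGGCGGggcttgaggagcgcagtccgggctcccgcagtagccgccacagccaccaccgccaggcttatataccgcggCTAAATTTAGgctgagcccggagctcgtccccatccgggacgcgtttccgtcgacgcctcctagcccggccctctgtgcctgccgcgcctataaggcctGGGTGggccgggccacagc
Klf4: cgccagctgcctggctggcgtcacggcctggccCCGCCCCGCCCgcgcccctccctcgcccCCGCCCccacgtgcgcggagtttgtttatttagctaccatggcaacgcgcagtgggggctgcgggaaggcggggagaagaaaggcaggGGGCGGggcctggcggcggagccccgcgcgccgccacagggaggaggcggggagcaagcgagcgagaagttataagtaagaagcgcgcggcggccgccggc
Klf3: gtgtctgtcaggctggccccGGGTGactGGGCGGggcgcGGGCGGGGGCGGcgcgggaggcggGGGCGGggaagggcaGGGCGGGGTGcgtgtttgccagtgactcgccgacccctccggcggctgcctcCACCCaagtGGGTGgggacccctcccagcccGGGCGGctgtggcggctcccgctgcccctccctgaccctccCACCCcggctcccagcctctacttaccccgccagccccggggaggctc
Klf7: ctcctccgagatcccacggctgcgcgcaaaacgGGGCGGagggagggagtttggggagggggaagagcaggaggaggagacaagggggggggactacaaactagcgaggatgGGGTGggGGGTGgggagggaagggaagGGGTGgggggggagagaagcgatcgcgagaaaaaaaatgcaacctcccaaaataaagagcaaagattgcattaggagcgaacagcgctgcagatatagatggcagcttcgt
The Klf2 window held 1 CACCC match, 2 GC boxes and 1 MEF2 match, a motif known in this promoter as the endpoint of the MEK5 and ERK5 pathway. The Klf4 window held 4 GC boxes and no CACCC match, the Klf3 window 5 CACCC matches and 6 GC boxes with 1 overlap between them, and the Klf7 window 3 CACCC matches and 1 GC box. Of the 7 members with a promoter entry, 5 held a CACCC match, against 52.0% of all 32851 promoters of that length. A GC box was held by 6 of the 7, against 32.7% of all promoters, and the MEF2 motif by 1, against 2.92%. The windows of the 7 members were also richer in G and C, at 59.2% to 78.4%, against a median of 52.4% for all promoters. Whether their matches exceed what this base content gives was not tested. These promoters are placed on another build than the accessible regions, which are given on GRCm39, so whether a region covers them was not analysed here.

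Levels are RPM, reads per 1000000 effective reads, undone from the deposited log2(RPM + 1) values, and changes are CuNZ@Gel minus Gel on that log2 scale, which understates changes of low values. Reads in regions numbered 7440951 and 10236665 in CuNZ@Gel, against 18843465 and 17914812 in Gel. Divided by the genome background pileup of each library, and given per 1000000, these were 6.37 and 8.53 in CuNZ@Gel and 18.8 and 18.6 in Gel. That pileup was inferred, as the value that best turned a library's common peak folds into whole pileups. It did so for 39.6% and 48.8% of these folds in CuNZ@Gel, against 84.4% and 80.8% in Gel, so it is less certain in CuNZ@Gel. Reads in regions and their ratio to the pileup both move with every result given here. The treatment and this difference in enrichment cannot be told apart. Changes are therefore given on 3 scales: the deposited one, one in which the trend of change with level is removed by cyclic loess, and one scaled to the background pileup. The median change of all regions tested was 0.00 on the deposited scale, -0.05 with the trend removed and -0.82 on the background pileup scale. In a bulk assay, fewer cells with an open region and less opening in each cell cannot be told apart.

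The main region of most of these genes was less accessible in CuNZ@Gel cells. On the deposited scale 18 of the 27 regions fell, 3 rose and 6 were not called by limma at a Benjamini-Hochberg adjusted p of 0.05, where over all 77014 regions tested 21.9% were called lower and 21.2% higher. All 27 passed the filter on low reads. With the trend removed, 15 of the 18 and all 3 rises were still called, against 13.8% lower and 18.8% higher over all regions. Scaled to the background pileup, 22 regions were called lower and 0 higher, against 60.6% and 4.85%, and 1 of the 3 rises had a negative change there. The median change of the 27 was -0.55 on the deposited scale, -0.32 with the trend removed and -1.54 on the background pileup scale. The values of the 4 libraries did not overlap between groups in 24 of the 27 regions, 20 of them lower in CuNZ@Gel, against 68.3% of all regions without overlap and 34.6% lower without overlap.

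**Figure D1:**
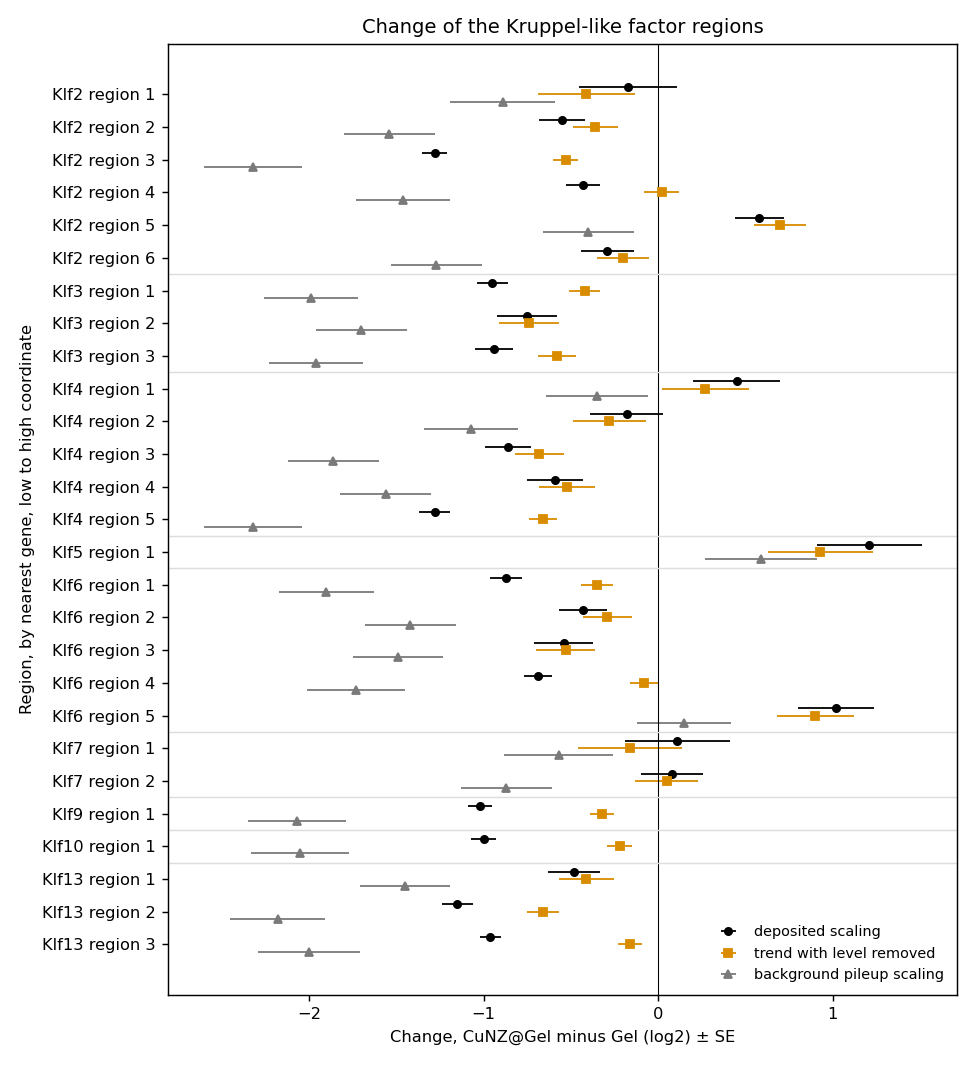
Log2 change (CuNZ@Gel minus Gel, ± SE) of each of the 27 regions, numbered within a gene by coordinate, on 3 scales: deposited (black circles), trend with level removed (orange squares) and background pileup (grey triangles). The rises of Klf2 region 5, Klf5 region 1 and Klf6 region 5 stand on the right on the first and second scale, while no rise is called on the third.

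Many of these regions are strongly accessible, and strong regions fell in general. Of the 27, 10 lay in the top decile of all regions by mean level, and all 10 fell. In that decile 86.9% of regions were called lower and the median change was -0.60, so a fall was the common case there. Among the 10, the largest falls were -1.28 at both Klf2 region 3 and Klf4 region 5, and the smallest was -0.43 at Klf2 region 4.

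**Figure D2:**
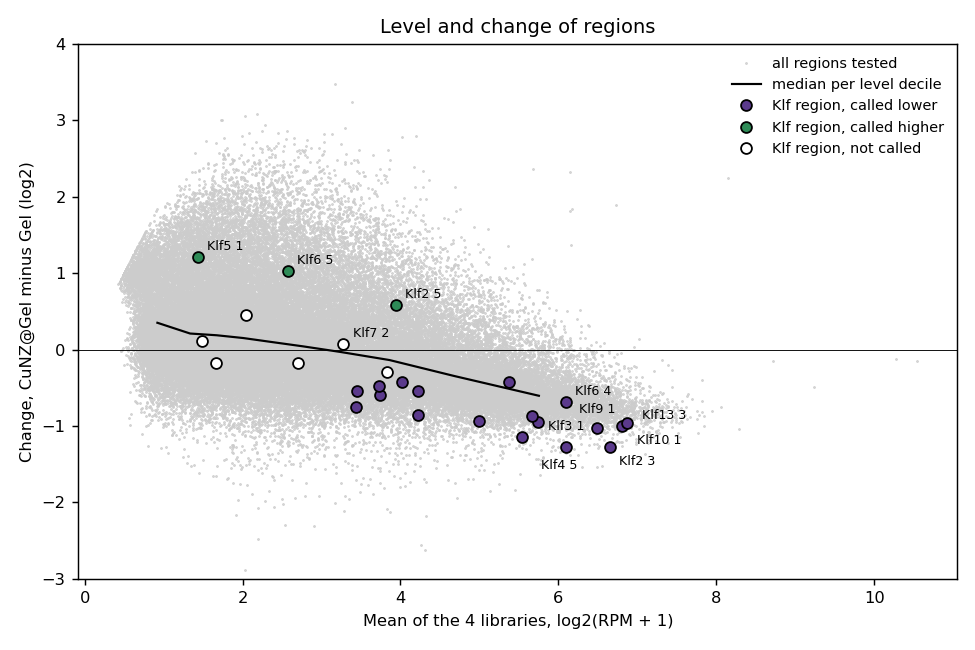
Mean log2(RPM + 1) of the 4 libraries against log2 change (CuNZ@Gel minus Gel) for all regions tested (grey) and the Kruppel-like factor regions (large points), with the median change in each level decile as a line. Klf2 region 4 is the 1 called fall above the median of its decile, and the 3 called rises lie above theirs.

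Klf2, induced by laminar flow in endothelium and a restraint on macrophage activation, had 6 regions over 39 kb, and they did not move together. Its strongest region, region 3 at chr8:73072502-73073483, had 61.2 and 66.6 RPM in the CuNZ@Gel libraries, against 161 and 151 RPM in the Gel libraries. Both CuNZ@Gel libraries were far below both Gel libraries, at 0.409 of the Gel mean level. The log2 change was -1.28 ± 0.07 (SE, limma adjusted p = 2.51e-20), and it was -0.53 with the trend removed (adjusted p = 3.08e-10) and -2.32 on the background pileup scale. Region 5, at chr8:73084878-73085812 and 12.35 kb from region 3 between centres, moved the other way. It had 17.5 and 18.1 RPM in CuNZ@Gel, against 11.1 and 11.9 RPM in Gel, with no overlap. Its log2 change was 0.58 ± 0.14 on the deposited scale (limma adjusted p = 0.000755) and 0.70 with the trend removed, but -0.40 on the background pileup scale, where it was not called (adjusted p = 0.163).

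The other Klf2 regions changed less. Region 2 averaged 14.5 ± 0.0988 RPM in CuNZ@Gel and 21.6 ± 0.998 RPM in Gel (SD, n = 2 each), and its fall of -0.55 was called in limma with the trend kept and removed. Region 4 averaged 35.1 ± 5.98 RPM in CuNZ@Gel and 47.4 ± 3.74 RPM in Gel, a called log2 change of -0.43 that was 0.02 once the trend was removed. Without CuNZ@Gel replicate 1 this change was -0.26 (limma adjusted p = 0.0429). Region 6, 31.34 kb from region 3, had a log2 change of -0.29 ± 0.15 and region 1, with overlapping groups, one of -0.17 ± 0.28, neither of them called (limma adjusted p = 0.121 and 0.67). Summed over its 6 regions, Klf2 had 138 and 152 RPM in CuNZ@Gel, against 260 and 248 RPM in Gel.

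Klf4, a pluripotency factor that in macrophages acts with STAT6, had 5 regions over 24.8 kb, of which 3 fell and 2 were not called. Its strongest region, region 5 at chr4:55532201-55533471, had 38.3 and 48.4 RPM in CuNZ@Gel, against 98.9 and 113 RPM in Gel. The groups were well apart, and the log2 change was -1.28 ± 0.09 (SE, limma adjusted p = 6.34e-17), or -0.66 with the trend removed. Regions 3 and 4, within 2.36 kb of it, also fell. Region 3 had 13.2 and 12.4 RPM in CuNZ@Gel, against 24.3 and 23.9 RPM in Gel, and region 4 had 8.61 and 11.4 RPM in CuNZ@Gel, against 17.5 and 13.6 RPM in Gel. The fall of region 4, -0.59 ± 0.16, rested on the full set of libraries: it was -0.42 without Gel replicate 1 (limma adjusted p = 0.155) and -0.41 without CuNZ@Gel replicate 1 (adjusted p = 0.0549).

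Region 1 of Klf4, 23.9 kb from region 5 at chr4:55508637-55509230, was weak, with 3.88 and 3.73 RPM in CuNZ@Gel and 2.91 and 2.17 RPM in Gel. The groups did not overlap, but its log2 change of 0.45 ± 0.25 was not called (limma adjusted p = 0.149). Region 2 beside it, with 5.7 and 4.62 RPM in CuNZ@Gel and 5.95 and 5.94 RPM in Gel, was not called either.

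Klf6, an early-response factor that favours inflammatory gene expression in macrophages, had 5 regions, of which 4 fell and 1 rose. Its strongest region, region 4 at chr13:5920022-5921959, had 57.1 and 48.6 RPM in CuNZ@Gel, against 87.3 and 83.7 RPM in Gel. That log2 change of -0.69 ± 0.08 was close to the trend with level: with the trend removed it was -0.08 (limma adjusted p = 0.509). Region 1, 9.69 kb away, had 40.3 and 33.4 RPM in CuNZ@Gel, against 70.5 and 65.0 RPM in Gel, a log2 change of -0.87 ± 0.09 that was -0.35 with the trend removed (adjusted p = 0.00156). Region 5, at chr13:5936932-5937121, rose. It had 8.49 and 6.57 RPM in CuNZ@Gel, against 3.38 and 2.97 RPM in Gel, from 70 and 74 reads in CuNZ@Gel and 58 and 48 reads in Gel. Its log2 change was 1.02 ± 0.22 (limma adjusted p = 0.000104) and 0.90 with the trend removed, while on the background pileup scale it was 0.15 and not called (adjusted p = 0.638). Region 5 was drawn from a peak of CuNZ@Gel replicate 1 alone, so its rise was tested where that library had been found high.

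Regions 2 and 3 of Klf6 fell by less and less firmly. Region 2 had 13.6 and 12.5 RPM in CuNZ@Gel, against 19.8 and 16.1 RPM in Gel, and a log2 change of -0.43 ± 0.14. It lost its call in limma without Gel replicate 1 (-0.29, adjusted p = 0.311) and without CuNZ@Gel replicate 2 (-0.37, adjusted p = 0.0525), and with the trend removed (-0.29, adjusted p = 0.111). Region 3 had 6.79 and 9.5 RPM in CuNZ@Gel, against 11.8 and 12.4 RPM in Gel, and a log2 change of -0.54 ± 0.17. Its call was lost without Gel replicate 1 (-0.57, adjusted p = 0.0547), Gel replicate 2 (-0.51, adjusted p = 0.102) or CuNZ@Gel replicate 1 (-0.32, adjusted p = 0.126).

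**Figure D3:**
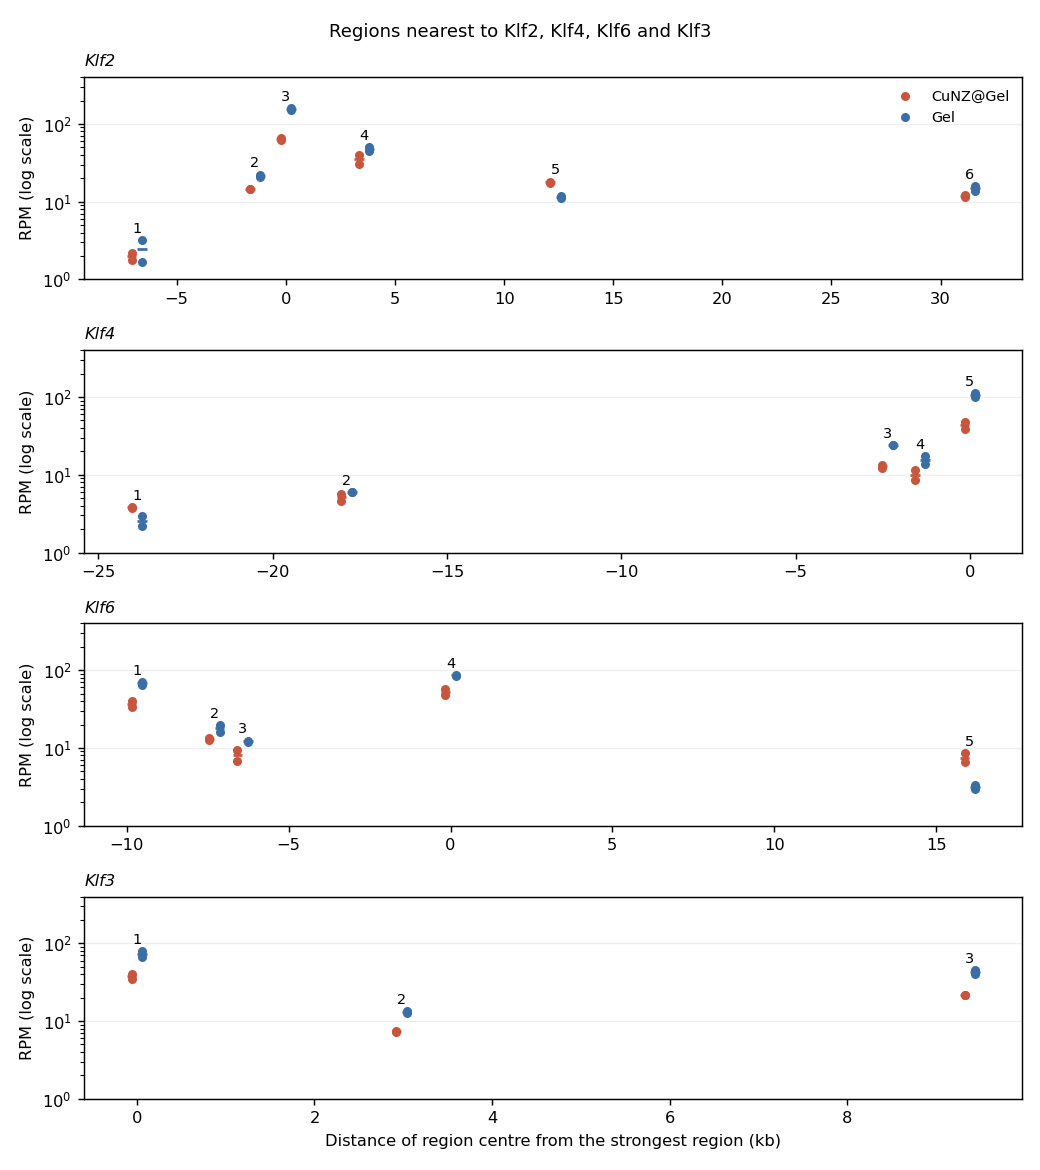
RPM (log axis) of each region of Klf2, Klf4, Klf6 and Klf3 against the distance of its centre from the gene's strongest region, with CuNZ@Gel to the left of Gel at each position, drawn side by side for legibility. Points are libraries and ticks are means of 2; Klf2 region 5 and Klf6 region 5 stand higher in CuNZ@Gel, at 12.35 and 16.04 kb.

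Klf9 and Klf10 had 1 region each, and both fell to about the same degree. Klf9, a gene induced by glucocorticoids, had 65.3 and 58.5 RPM in CuNZ@Gel, against 130 and 124 RPM in Gel, at chr19:23117695-23118918. Klf10, the TGF-beta inducible early gene, had 80.4 and 76.2 RPM in CuNZ@Gel, against 159 and 157 RPM in Gel, at chr15:38300693-38301749. In both, each CuNZ@Gel library was far below each Gel library. The log2 changes were -1.02 ± 0.07 for Klf9 and -1.0 ± 0.07 for Klf10 (SE, limma adjusted p = 2.08e-16 and 1.17e-17), and -0.32 and -0.22 with the trend removed (adjusted p = 0.000242 and 0.00538).

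Klf13, an activator of Ccl5 in T lymphocytes, had 3 regions within 3.3 kb, and all fell. The strongest, region 3 at chr7:63588212-63589595, had 81.5 and 85.1 RPM in CuNZ@Gel, against 157 and 168 RPM in Gel. Its log2 change of -0.96 ± 0.06 was -0.16 with the trend removed (limma adjusted p = 0.0454), near the threshold. Region 2, 1.44 kb away, had 28.9 and 31.8 RPM in CuNZ@Gel, against 65.2 and 71.5 RPM in Gel, and the largest log2 change of the gene, -1.15 ± 0.09, which was -0.66 with the trend removed. Region 1 had 10.8 and 9.69 RPM in CuNZ@Gel, against 14.6 and 14.7 RPM in Gel, and its log2 change of -0.48 was no longer called without Gel replicate 1 (-0.48, adjusted p = 0.0838) or Gel replicate 2 (-0.47, adjusted p = 0.0924).

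Klf3, a repressor that recruits CtBP, also had 3 regions that all fell, and its falls held with the trend removed. The strongest, region 1 at chr5:64960203-64961126, had 34.3 and 40.6 RPM in CuNZ@Gel, against 66.8 and 80.1 RPM in Gel, a log2 change of -0.95 ± 0.09 that was -0.42 with the trend removed (limma adjusted p = 5.26e-12 and 9.56e-05). Region 3, the widest of all 27 at 2098 bases, had 21.9 RPM in each CuNZ@Gel library, against 40.5 and 45.6 RPM in Gel. Region 2, of 256 bases, had 7.28 and 7.46 RPM in CuNZ@Gel, against 12.7 and 13.5 RPM in Gel. Its log2 change was -0.75 ± 0.17 with the trend kept and -0.74 with it removed.

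Klf5, an epithelial progenitor factor, had a single weak region at chr14:99443392-99443717, and it rose. It had 2.42 and 3.91 RPM in CuNZ@Gel, against 0.933 and 0.619 RPM in Gel, from 20 and 44 reads in CuNZ@Gel and 16 and 10 reads in Gel. The mean level was 4.08 times higher in CuNZ@Gel, and the log2 change of the values with 1 added was 1.21 ± 0.30 (SE, limma adjusted p = 0.000656). It was 0.93 with the trend removed (adjusted p = 0.0103) and 0.59, not called, on the background pileup scale (adjusted p = 0.0917). The region was drawn from peaks of the CuNZ@Gel libraries alone and passed the read filter through them. Its rise was thus tested where the signal had been found high, and these p-values do not allow for that choice.

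Klf7, known for its part in axon growth, had no region that was called on the deposited scale or with the trend removed. Region 2, at chr1:64173316-64174093, had 9.22 and 8.71 RPM in CuNZ@Gel and 7.58 and 9.4 RPM in Gel. Region 1, 33.06 kb away, had 2.79 and 1.24 RPM in CuNZ@Gel and 1.17 and 2.35 RPM in Gel. The groups overlapped in both, with log2 changes of 0.08 ± 0.18 and 0.11 ± 0.30 (limma adjusted p = 0.774 and 0.803), although on the background pileup scale region 2 was called lower, at -0.87 (adjusted p = 0.00216). A much stronger region between them, which the authors named for Gm35880, had a log2 change of -1.03 (adjusted p = 3.9e-17) and -0.29 with the trend removed, and it is not counted for Klf7 here.

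**Figure D4:**
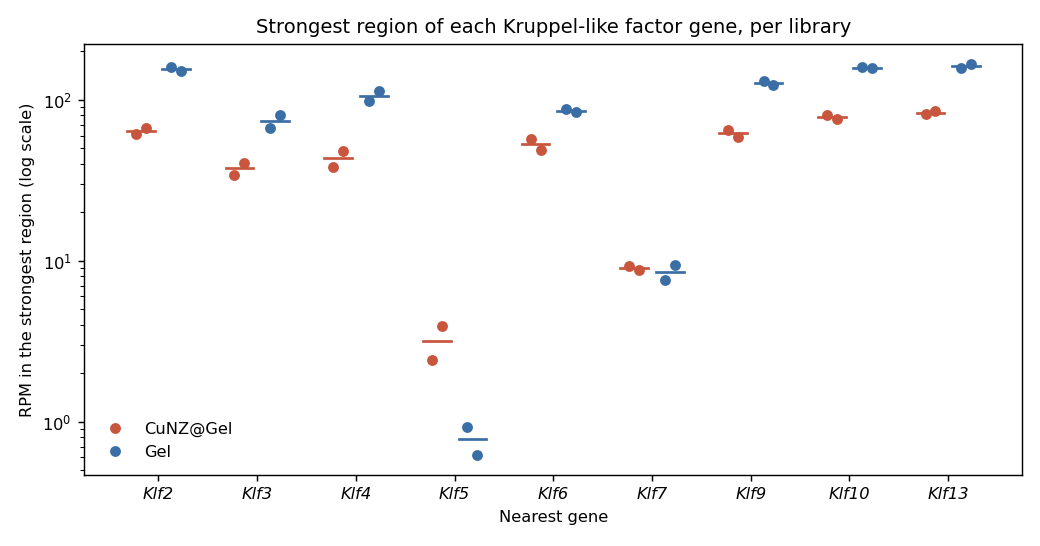
RPM (log axis) in the strongest region of each gene, CuNZ@Gel left of Gel; points are the 2 libraries of a group and lines their means. In 7 of the 9 genes both CuNZ@Gel libraries lie below both Gel libraries, Klf5 is higher in CuNZ@Gel and Klf7 overlaps. The stronger region between the Klf7 regions, named for Gm35880, is not drawn.

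Per kb of width, the strongest regions of Klf10 and Klf2 stood highest in both groups and those of Klf7 and Klf5 lowest. The place of Klf7 rests on the authors' naming, since the stronger region between its regions, named for Gm35880, is left out. In CuNZ@Gel the order was Klf10, Klf2, Klf13, Klf9, Klf3, Klf4, Klf6, Klf7 and Klf5, with mean levels between 74.1 ± 2.81 RPM per kb for Klf10 and 9.71 ± 3.23 RPM per kb for Klf5 (SD, n = 2). In Gel the order was Klf2, Klf10, Klf13, Klf9, Klf4, Klf3, Klf6, Klf7 and Klf5, between 159 ± 7.2 RPM per kb for Klf2 and 2.38 ± 0.681 RPM per kb for Klf5. The ranges of the libraries overlapped for Klf3 and Klf4 in both groups and for Klf7 and Klf5 in CuNZ@Gel, and the other neighbours in each order were apart. Klf2 stood at 65.1 ± 3.89 RPM per kb in CuNZ@Gel.

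Whether a region changed differently from the rest of its own gene was tested within limma for the 24 regions of the 6 genes with more than 1 region. Of these, 7 were called, against 33% of 68027 regions tested in this way, and 4 with the trend removed, against 26.7%. Such differences were thus no more common here than over all regions. Klf2 region 5 differed from the other Klf2 regions by 1.13 on the log2 scale (adjusted p = 0.000407), Klf4 region 1 from its own by 1.17 (adjusted p = 0.000473) and Klf6 region 5 by 1.65 (adjusted p = 3.06e-05). With the trend removed these differences were 0.99, 0.81 and 1.22, all still called (adjusted p = 0.00113, 0.00633 and 0.00048). Since Klf6 region 5 was drawn from a peak of CuNZ@Gel replicate 1 alone, its test does not allow for that choice. Klf2 region 3 differed by -1.11, Klf4 region 5 by -0.98 and Klf6 region 1 by -0.71, but with the trend removed these were -0.48, -0.36 and -0.35 and not called (adjusted p = 0.0655, 0.177 and 0.196). The fourth region called with the trend removed was Klf6 region 3, at -0.58 (adjusted p = 0.0395), against -0.30 on the deposited scale (adjusted p = 0.244). The last of the 7, Klf13 region 1, differed by 0.57 (adjusted p = 0.0202) and by 0.00 with the trend removed. Klf4 region 5 was not called without Gel replicate 2 (-0.80, adjusted p = 0.0706), and Klf6 region 1 was not called without Gel replicate 1 (-0.70, adjusted p = 0.12) or Gel replicate 2 (-0.71, adjusted p = 0.119). Klf13 region 1 was not called without Gel replicate 1 (0.63, adjusted p = 0.139), Gel replicate 2 (0.52, adjusted p = 0.215) or CuNZ@Gel replicate 1 (0.45, adjusted p = 0.109).

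Summed over the regions of a gene, 7 of the 9 genes fell, Klf5 rose and Klf7 was not called, where 36.1% of 25900 gene sums tested were lower and 20.5% higher. With the trend removed the counts were the same, against 15.4% lower and 20.7% higher. On the background pileup scale 8 fell and 0 rose, against 75.5% lower and 2.77% higher. The log2 changes of the sums that fell lay between -1.03 for Klf4 and -0.65 for Klf6, and with the trend removed between -0.61 for Klf4 and -0.19 for Klf6. Klf6, whose sum fell to 126 and 111 RPM in CuNZ@Gel, against 193 and 180 RPM in Gel, holds region 5, so a sum hides a region that moved the other way.

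The authors called peaks on each library alone, and these calls do not follow the levels in every region. Of the 27 regions, 22 and 24 held a peak in CuNZ@Gel replicates 1 and 2, and 23 and 22 in Gel replicates 1 and 2. Over all 80929 regions the shares with a peak were 50.9% and 64.2% in CuNZ@Gel and 75.1% and 72.4% in Gel. A peak in every library was held by 18 of the 27, against 39.6% of all regions. Klf5 region 1 held a peak in both CuNZ@Gel libraries and in neither Gel library, with the authors' folds over background of 3.23 and 7.27. Klf13 region 1 also held peaks in the CuNZ@Gel libraries alone, although its RPM was lower there. Klf6 region 5 held a peak in CuNZ@Gel replicate 1 alone, with a fold of 4.79, and no peak was called there in the other 3 libraries. The regions are the merged peaks of the 4 libraries, so Klf5 region 1 and Klf6 region 5 were set by CuNZ@Gel peaks alone. Their peak calls are therefore no separate support for their rises. Klf2 region 5 held a peak in every library.

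Regions of other genes next to these showed both directions. On the lower side of Klf9, a region named for 2410080I02Rik at 3.9 kb had a log2 change of -1.22, and -0.31 with the trend removed. A region named for Gm46401, 1 kb beyond Klf6 region 5, had a log2 change of -0.73 (limma adjusted p = 2.49e-06), and -0.45 with the trend removed. A region named for Gm34343, 7.6 kb beyond the strongest Klf4 region, rose by 0.85 on the log2 scale (limma adjusted p = 2.1e-06) and by 0.98 with the trend removed. Regions named for Gm35248 lie on both sides of Klf10: the one at 0.7 kb changed by -0.86 and the one at 8.8 kb by 0.78 (limma adjusted p = 1.15e-11 and 0.0208).

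Among the rest of the family, 5 of 7 genes could be tested as gene sums. Klf8 and Klf11 fell, Klf14 and Klf15 rose, and Klf17 was not called, where 36.1% of all gene sums were lower and 20.5% higher on the deposited scale. On the background pileup scale 4 of the 5 were called lower and 0 higher, against 75.5% lower and 2.77% higher over all gene sums. The direction of Klf15 turned (0.45, limma adjusted p = 0.0272, on the deposited scale and -0.51, adjusted p = 0.0483, on the background pileup scale). With the trend removed, Klf8 was the 1 gene still called: its strongest region had 13.7 and 13.9 RPM in CuNZ@Gel, against 22 and 24.8 RPM in Gel. Klf11, a TGF-beta inducible relative of Klf10, had 80.3 and 84.7 RPM in CuNZ@Gel, against 139 and 157 RPM in Gel, and the log2 change of its sum was -0.83, or -0.06 with the trend removed. Of the SP factors, which bind the same GC boxes, 5 of 8 tested fell and 0 rose on the deposited scale, and all 8 were lower on the background pileup scale. With the trend removed, where 15.4% of all gene sums were lower and 20.7% higher, Sp6 fell (-0.42, limma adjusted p = 0.0215) and Sp3 rose (0.23, adjusted p = 0.00954), a change of direction for Sp3, whose sum changed by -0.37 on the deposited scale.

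The MEK5 to ERK5 cascade and the MEF2 factors, which act upstream of Klf2 and Klf4, had 7 of 8 genes lower and 0 higher, and 4 lower with the trend removed. These 4 were Mapk7 (ERK5 itself), Map3k3, Mef2b and Mef2c, with log2 changes of -0.23, -0.18, -0.48 and -0.16 with the trend removed. The strongest Mapk7 region had 48.5 and 41 RPM in CuNZ@Gel, against 73.4 and 73.5 RPM in Gel. Of the corepressor genes 5 of 6 fell, with Sin3a the 1 still called with the trend removed, at -0.21. Of the coactivator genes 2 of 3 fell and 0 with the trend removed. Of the ubiquitin ligases that act on these proteins 5 of 5 fell, with Smurf2 the 1 still called with the trend removed, at -0.32. Over all gene sums, 36.1% were lower and 20.5% higher on the deposited scale, and with the trend removed 15.4% were lower and 20.7% higher. Every gene of these 4 lists was called lower on the background pileup scale, where 75.5% of all gene sums were.

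Of 8 genes described as targets of these factors, 5 fell and 1 rose, where 36.1% of all gene sums were lower and 20.5% higher. On removing the trend 3 fell and 3 rose, against 15.4% lower and 20.7% higher. S1pr1, a lipid receptor that Klf2 activates in lymphocytes, and Per1, a clock gene, fell on both, with log2 changes of their sums of -0.77 and -0.92 on the deposited scale and -0.51 and -0.27 with the trend removed. Cdkn1b, a cell cycle inhibitor, changed by -0.76 and -0.33. Cdkn1a, the inhibitor that Klf4 activates, had -0.82 on the deposited scale and 0.05 with the trend removed, where it was not called. The sum over the 7 Lpl regions rose on both, by 0.26 and 0.39, but its strongest region fell, with 23.2 and 24.6 RPM in CuNZ@Gel, against 35.6 and 33.2 RPM in Gel (log2 change -0.51, limma adjusted p = 0.000154, and -0.17 with the trend removed). Ccnd1 was called lower on the deposited scale (-0.13) and higher once the trend was removed (0.24). Nos3 was not called on the deposited scale (0.28, limma adjusted p = 0.0696) and was higher with the trend removed (0.45, adjusted p = 0.00884). Thbd was called on neither of these scales (-0.24 and -0.37, limma adjusted p = 0.225 and 0.0891). Scaled to the background pileup, all 8 were called lower, where 75.5% of all gene sums were.

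Of 10 macrophage marker genes 9 had a region, all but Fcgr3, and their summed level was 956 and 978 RPM in CuNZ@Gel and 1270 and 1290 RPM in Gel. For markers of other cell types, summed levels were 24 and 14.6 RPM in CuNZ@Gel and 13.9 and 12.5 RPM in Gel for 5 lymphocyte genes, of which Cd3g and Cd79a had no region. Fibroblast genes summed to 38.6 and 36.5 RPM in CuNZ@Gel and 38.7 and 36.1 RPM in Gel (2 of 5 with a region, none for Col1a2, Dcn and Lum), and epithelial genes to 11.2 and 15.4 RPM in CuNZ@Gel and 10.7 and 11 RPM in Gel (2 of 4, none for Krt5 and Krt14). Endothelial genes, 3 of 4 with a region and none for Emcn, summed to 32.3 and 37.1 RPM in CuNZ@Gel and 19.8 and 17.8 RPM in Gel. Of these 3, Kdr and Tek rose (log2 changes of their sums 1.01 and 0.74, limma adjusted p = 1.7e-05 and 0.00177), while Cdh5 was not called (0.30, adjusted p = 0.265). With the trend removed Kdr and Tek were still called, at 1.1 and 0.58. Over all gene sums 20.5% were higher on the deposited scale and 20.7% with the trend removed. Of the 9 macrophage genes 7 fell and 1 rose on the deposited scale, where 36.1% of all gene sums were lower. Epcam fell and Cdh1 rose there, and no lymphocyte or fibroblast gene was called. On the background pileup scale none of the 3 endothelial genes rose and Cdh5 was called lower (-0.57, limma adjusted p = 0.0424). There 75.5% of all gene sums were lower and 2.77% higher. All libraries are titled RAW264.7, a cell line, so these levels were not read as shares of other cell types. Whether they bear on the rises at Klf2, Klf5 and Klf6 was not tested.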

How the data were processed

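ATAC-seq libraries of RAW264.7 cells were compared, 2 titled CuNZ@Gel and 2 titled Gel, grouped by title. Per the submitters' processing notes, the tools were MACS2 2.2.8, Picard 2.27.5, SAMtools 1.17, Bowtie2 2.3.4.3 and fastp 0.23.1, and the build was GRCm39; what each tool did is not given there. The authors deposited, per library, log2 values of 80929 regions with a nearest gene. These deposited values were read as log2(RPM + 1), because undoing the logarithm made 100% of low values whole reads to within 0.1. The authors also deposited peak lists per library with a fold enrichment (a ratio), -log10 values of the p-value and q-value, and a score. Merging these lists gave 80929 regions in the same order, which supplied coordinates, counted from 1.

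Regions and gene sums were tested with limma 3.58.1 under R 4.3.3, with an intensity trend, two-sided tests and Benjamini-Hochberg adjustment over all features at 0.05. Kept regions had 10 or more reads at the median depth in 2 libraries and 15 or more in all. Differences within genes were tested with limma's test of a region against the other regions of its gene. The count test first planned was replaced because the values are log2. The fits were tested on simulated data. Each member's strongest region was given in every library, and the region of largest change where it was another one. The members and lists were chosen with earlier results of these data known. Replicate numbers did not pair the samples: deviations of same-numbered libraries correlated at 0.0163. Replicates differed by more than sampling noise (chi-square per degree of freedom 2.19 in CuNZ@Gel and 2.48 in Gel).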

Additional observations from a re-analysis of the deposited data

How the results depend on the processing

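Of the 27 region changes, 27 kept their direction and call with median-of-ratios factors, without the filter, with a pseudocount of 0.25, with voom on recovered reads (chosen after seeing the data) and with a replicate block. The replicate block left 18 regions lower and 3 higher, against 22.4% and 21.7% over all regions, and called 8 within-gene differences. With 2 replicate numbers these share a number and no known source. Regions called higher numbered 0 on the background pileup scale, against 4.85% of all regions. With the strict filter of 50 reads in every library, which tested 22 of the 27, they numbered 1, against 13.75%. Klf5 region 1 and Klf6 region 5 were not among the 22 tested. Gene sums called higher numbered 0 in both, against 2.77% and 17.1% of all gene sums, and the Klf5 sum was not tested with the strict filter. Within-gene calls numbered 4 under cyclic loess and 4 to 8 when leaving out each library, with 4 without Gel replicate 2. Leaving out a library left 14 to 17 regions lower and 3 higher. Without the authors' scaling factors (read totals alone) 12 regions were lower and 4 higher, against 11.9% lower and 30.05% higher over all regions. The calls of Klf2 regions 2 and 4, Klf4 region 4, Klf6 regions 2 and 3 and Klf13 region 1 were then lost.

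Changes of sign were as follows, and the cause was not tested. On the background pileup scale the changes were -0.40 for Klf2 region 5, -0.35 for Klf4 region 1, -0.57 for Klf7 region 1, -0.87 for Klf7 region 2 and -0.87 for the Klf7 sum. Under cyclic loess they were 0.02 for Klf2 region 4 and -0.16 for Klf7 region 1. With read totals alone they were 0.06 for Klf4 region 2 and 0.02 for Klf2 region 1. Without Gel replicate 1 they were -0.20 and -0.06 for Klf7 regions 1 and 2, -0.10 for the Klf7 sum and 0.16 for Klf2 region 1, and without CuNZ@Gel replicate 1 they were -0.26 for Klf7 region 1 and -0.03 for the Klf7 sum. Leaving out each library thus gave -0.26 to 0.49 for Klf7 region 1, -0.06 to 0.21 for Klf7 region 2, -0.10 to 0.29 for the Klf7 sum and -0.50 to 0.16 for Klf2 region 1. The difference of Klf6 region 3 from its gene's other regions, -0.30 in the fit reported, was -0.58 under cyclic loess, where it was called (adjusted p = 0.0395), 0.12 with the strict filter, 0.11 with voom and -0.63 to 0.03 when leaving out each library (called at -0.63, without CuNZ@Gel replicate 2, adjusted p = 0.0289). The planned count test was not run because the values are log2. Depth limits Klf5 region 1 and Klf7 region 1 most, since their values rest on few reads.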
